A study of Mus musculus with 13 samples.

Results

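Lipk, Lipm, Lipn and Abhd12b encode 4 lipid hydrolases that were grouped as epidermal-type lipases with high levels in the forestomach. They were taken as the probe sets listed with exactly these gene symbols, and where a gene had several the one with the highest mean was to be used. Each gene had 1 probe set, so the group was 4 probe sets, and all 4 genes were among the 15875 tested of 19934 genes with a probe set of their own. The genes were chosen from their levels across the tissues and genotypes of these same arrays, so the difference between control forestomach and control esophagus is given as a description, without a test. The grouping describes Lipn, Abhd12b and, by a smaller margin, Lipm, while Lipk had overlapping levels in control forestomach and control esophagus and did not follow the name.

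The arrays measured epithelium of 13 mouse samples, separated from the tissue below it with dispase. All mice carried L2-Cre on a mixed C57Bl/6 and 129 background, and the controls had Cre together with wild-type p120 alleles (Cre/p120 +/+). The groups were masses of the forestomach of Cre/p120 flox/flox mice (animals 412, 426 and 510), control forestomach (animals 214, 216 and 217), esophagus of Cre/p120 flox/flox mice (animals 193, 307, 313 and 335) and control esophagus (the same animals 214, 216 and 217). L2-Cre uses an Epstein-Barr virus promoter that is active in squamous epithelium of the upper digestive tract, and p120-catenin, the product of Ctnnd1, holds cadherins at cell junctions. The labels give no ages, and each sample carries 1 animal number. All 3 forestomach samples of flox/flox mice were masses, so genotype and mass cannot be told apart there.

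The forestomach and the esophagus of the mouse are lined by a cornifying squamous epithelium, and the upper layers of such epithelia make a lipid barrier by cleaving and rebuilding lipids. LIPK, LIPM and LIPN belong to the acid lipase family, with the lysosomal lipase LIPA and the gastric lipase LIPF, and in human epidermis they are made by the uppermost granular keratinocytes. Variants of LIPN cause an ichthyosis in humans. ABHD12B is a little characterised relative of ABHD12, a lipase that cleaves lysophosphatidylserine.

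Lipk, Lipn and Lipm lie side by side on chromosome 19 in the RefSeq annotation of GRCm38.p6, next to the gastric lipase gene Lipf, and Abhd12b lies on chromosome 12. RefSeq promoters of that build were matched for 3 of the 4 genes, Lipm, Lipn and Abhd12b. The 250 bases before each annotated start are shown because Lipn and Abhd12b followed each other most closely across the arrays, while Lipm, a neighbour of Lipn, differed far less between the tissues. Both traits rest largely on the tissue levels from which the genes were chosen. Capitals mark matches to 4 short elements of factors known in squamous differentiation, searched on both strands. These were TGANTCA for AP-1, AACNGGTT for grainyhead factors, TTGCNNAA for C/EBP factors and GGGNGTG for Krueppel-like factors. All 3 windows are on the plus strand, 5′ to 3′, at chr19:34100693-34100942 for Lipm, chr19:34067108-34067357 for Lipn and chr12:70153881-70154130 for Abhd12b. The window of Lipn lies inside the annotated span of its gene.
Lipm: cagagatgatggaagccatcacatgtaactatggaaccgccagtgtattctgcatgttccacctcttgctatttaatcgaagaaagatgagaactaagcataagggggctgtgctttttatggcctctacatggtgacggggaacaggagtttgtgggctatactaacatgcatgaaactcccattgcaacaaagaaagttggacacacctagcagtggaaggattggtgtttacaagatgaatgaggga
Lipn: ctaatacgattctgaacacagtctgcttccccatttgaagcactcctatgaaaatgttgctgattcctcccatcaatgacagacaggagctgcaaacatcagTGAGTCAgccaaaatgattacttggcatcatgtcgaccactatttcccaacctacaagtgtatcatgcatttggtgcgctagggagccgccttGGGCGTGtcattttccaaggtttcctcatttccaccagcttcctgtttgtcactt
Abhd12b: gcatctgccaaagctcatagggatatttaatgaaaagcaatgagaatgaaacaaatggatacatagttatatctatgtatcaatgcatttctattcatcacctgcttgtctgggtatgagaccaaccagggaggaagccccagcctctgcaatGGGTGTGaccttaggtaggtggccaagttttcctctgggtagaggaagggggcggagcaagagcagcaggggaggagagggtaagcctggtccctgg
Lipn held the AP-1 letters TGAGTCA at 148 to 142 bases before the start and the Krueppel-like letters GGGCGTG at 55 to 49 bases. Abhd12b held GGGTGTG at 97 to 91 bases before the start, and the Lipm window held none of the 4 elements. Among 32851 mouse promoter windows of the same length, 6.75% held the AP-1 letters, 26.1% the Krueppel-like letters, 9.56% the C/EBP letters and 1.79% the grainyhead letters. These matches describe letters and not binding.

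Levels are log2 of the deposited intensity, so that a difference of 1 is 2-fold. Levels of different probe sets are not compared with each other, except to place a low signal among those of all genes on an array. Lipn measured 8.47, 10.20 and 10.99 in the masses of animals 412, 426 and 510, against 11.86, 11.71 and 11.80 in the control forestomach of animals 214, 216 and 217. It measured 5.61, 5.13, 5.07 and 5.32 in the flox/flox esophagus of animals 193, 307, 313 and 335, against 4.89, 5.07 and 4.86 in the control esophagus of animals 214, 216 and 217. Every forestomach sample thus lay far above every esophagus sample, where 23.3% to 36.004% of all genes had a lower level than Lipn. The filter for testing was a log2 intensity above 5 on at least 3 arrays, and 1 of 3 control esophagus arrays exceeded it for Lipn.

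Abhd12b measured 4.58, 7.35 and 8.55 in the masses of animals 412, 426 and 510, against 9.77, 9.52 and 9.71 in the control forestomach of animals 214, 216 and 217. Its levels were 4.23, 3.88, 4.11 and 3.96 in flox/flox esophagus (animals 193, 307, 313 and 335), against 4.01, 4.29 and 3.95 in control esophagus (animals 214, 216 and 217). It stayed below 5 on all 7 esophagus arrays and on the mass of animal 412, so it was tested only because of the other forestomach arrays. On the esophagus arrays 10.3% to 14.1% of all genes had a lower level than Abhd12b, and its esophagus groups overlapped.

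Lipm measured 10.75, 11.26 and 11.69 in the masses of animals 412, 426 and 510, against 12.22, 12.15 and 12.24 in the control forestomach of animals 214, 216 and 217. It measured 11.07, 11.48, 11.34 and 10.97 in the flox/flox esophagus of animals 193, 307, 313 and 335, against 11.45, 11.49 and 11.61 in the control esophagus of animals 214, 216 and 217. Control forestomach was the highest group for Lipm and did not overlap with any other, and the other 3 groups overlapped.

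Lipk measured 9.37, 9.83 and 10.34 in the masses of animals 412, 426 and 510, against 10.78, 11.08 and 11.00 in the control forestomach of animals 214, 216 and 217. It measured 9.62, 10.55, 10.55 and 9.65 in the flox/flox esophagus of animals 193, 307, 313 and 335, against 10.74, 10.68 and 11.07 in the control esophagus of animals 214, 216 and 217. Both control tissues overlapped for Lipk, and so did both flox/flox groups, which lay below the control groups.

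**Figure D1:**
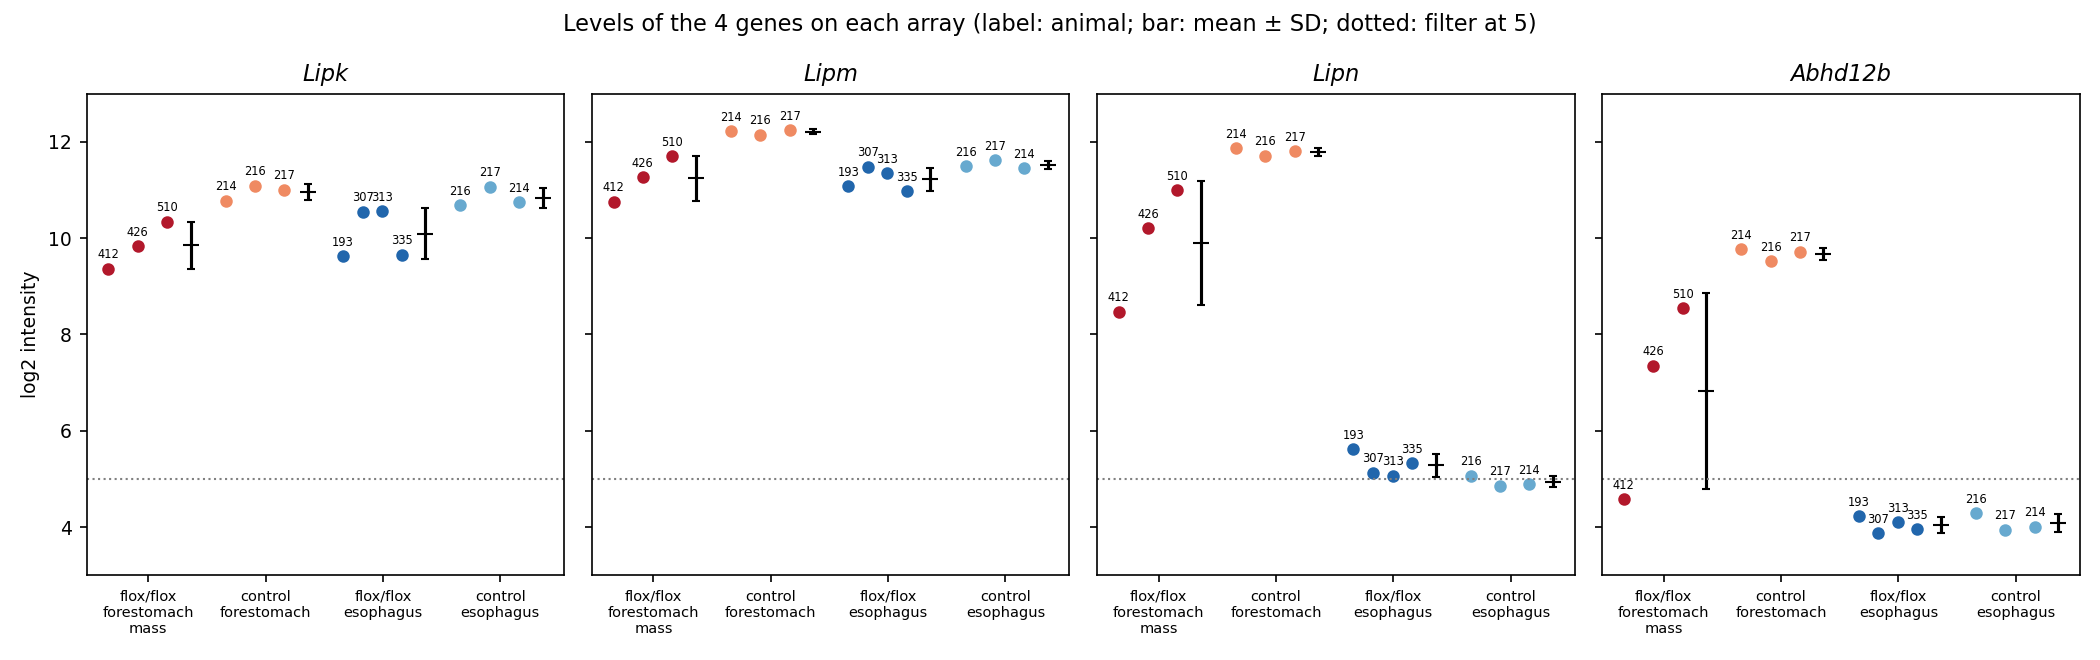
Log2 intensity of Lipk, Lipm, Lipn and Abhd12b on each of the 13 arrays, labelled by animal, with the mean and SD of each group beside the points and the filter at 5 as a dotted line. Lipn and Abhd12b separate both forestomach groups from the esophagus, narrowly for Abhd12b in the mass of animal 412 (4.58, against at most 4.29 in the esophagus), while Lipk does not separate the control tissues.

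By group means, the order of Lipn was control forestomach (11.79 ± 0.08, SD, n = 3), masses (9.89 ± 1.29, n = 3), flox/flox esophagus (5.28 ± 0.24, n = 4) and control esophagus (4.94 ± 0.11, n = 3). The last pair touched, since the lowest flox/flox and the highest control esophagus array both measured 5.07. Abhd12b followed with 9.67 ± 0.13 in control forestomach and 6.83 ± 2.04 in the masses. Its esophagus groups, with 4.04 ± 0.16 in flox/flox and 4.08 ± 0.18 in control mice, overlapped. For Lipm the order was control forestomach (12.20 ± 0.05), control esophagus (11.52 ± 0.08), masses (11.24 ± 0.47) and flox/flox esophagus (11.22 ± 0.24), and the 3 lower groups overlapped. For Lipk it was control forestomach (10.95 ± 0.16), control esophagus (10.83 ± 0.21), flox/flox esophagus (10.09 ± 0.53) and masses (9.85 ± 0.49), with overlap in the upper pair and in the lower pair.

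Set against the control esophagus of the same animals, control forestomach was higher by log2 differences of 6.85 for Lipn and 5.58 for Abhd12b, which are what the genes were chosen for. In control esophagus Lipn was above the filter on 1 of 3 arrays and Abhd12b on none, so the folds are limits. With levels under the filter raised to it, control forestomach had at least 109-fold more Lipn signal and at least 25.4-fold more Abhd12b signal. The difference of Lipn was 6.98, 6.64 and 6.93 in animals 214, 216 and 217, and that of Abhd12b was 5.76, 5.23 and 5.77. Lipm differed 1.61-fold (0.77, 0.66 and 0.63 by animal). Lipk differed 1.09-fold, with values of 0.04, 0.40 and -0.06, so that 1 of the 3 animals had the lower level in its forestomach. Among all genes tested the median of this difference was 0.02. Only 3 genes exceeded Lipn and 5 exceeded Abhd12b, against 564 above Lipm and 5412 above Lipk. In flox/flox mice, where the samples came from different animals, the masses exceeded the esophagus 24.3-fold for Lipn, which was above the filter on all of these arrays. For Abhd12b the excess was at least 3.55-fold, with the 4 flox/flox esophagus arrays raised to the filter. The mass minus flox/flox esophagus difference was 0.02 for Lipm and -0.25 for Lipk on the log2 scale, within overlapping groups.

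In the masses all 4 genes were lower than in control forestomach, and no mass reached the lowest control level of any of them. Abhd12b fell by 2.84 on the log2 scale (SE 0.70, adjusted p = 0.0238 in limma, n = 3 each), and with the mass of animal 412 raised to the filter it was at least 6.50-fold lower. Lipn was 3.74-fold lower (log2 difference -1.90, SE 0.45, adjusted p = 0.0209 in limma). Lipk, with -1.11 (SE 0.29, 2.15-fold lower, adjusted p = 0.0335 in limma), and Lipm, with -0.97 (SE 0.20, 1.95-fold lower, adjusted p = 0.0117 in limma), had smaller fitted changes. Adjusted p-values are Benjamini-Hochberg values over all genes tested, called at 0.05, and 10.7% of all genes were called in this comparison, 8.4% lower and 2.31% higher. The mass of animal 412 set much of the size: without it the differences were -1.72 for Abhd12b (adjusted p = 0.00716 in limma) and -1.20 for Lipn (adjusted p = 0.0110), and without the mass of animal 510 they were -3.70 and -2.45. The control forestomach arrays are also the arrays on which the genes were chosen as high, so the count of 4 called of 4 is not independent of that choice. Fewer cells with these transcripts and less of the transcript per cell cannot be told apart in such bulk samples.

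The 3 masses differed among themselves more than the controls did, and in the same order for every gene. As a share of the control geometric mean, Abhd12b reached 20.1% and 46.0% in the masses of animals 426 and 510, and at most 3.93% in that of animal 412, where it was below the filter. Lipn reached 10.03%, 33.3% and 57.4%, Lipm 36.6%, 52.2% and 70.2%, and Lipk 33.3%, 45.9% and 65.4%. Animal 412 was thus the lowest and animal 510 the highest for each gene. The SD among masses was 2.04 for Abhd12b and 1.29 for Lipn, against 0.13 and 0.08 among control forestomach arrays. The fit uses 1 spread per gene over all 4 groups, and with the forestomach arrays alone the adjusted p of limma was 0.0613 for Lipk, 0.0702 for Lipm, 0.114 for Lipn and 0.126 for Abhd12b, so none of the 4 calls remained. Leaving out any 1 control forestomach array also ended the calls of Lipk, Lipn and Abhd12b (adjusted p = 0.0612 to 0.108 in limma), while Lipm stayed called.

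Transcripts of other cell layers and types moved with the masses too. The mean level of granular and cornified cell markers was 10.71, 10.82 and 11.33 in the masses of animals 412, 426 and 510, in the order of the 4 genes, against 11.62 to 11.75 in control forestomach. The squamous epithelium markers averaged 11.03, 10.90 and 11.09 in the same masses, with animal 426 and not 412 lowest, and 11.13 to 11.28 in control forestomach. Of the 14 tested, 4 were called lower and 1 higher, beside 8.4% lower and 2.31% higher over all genes. Of 12 granular and cornified markers tested, 12 had a difference below 0 and 3 were called lower. Leukocyte markers averaged 8.01, 6.99 and 7.74 in the masses of animals 412, 426 and 510 and 5.82 to 6.29 in control forestomach. Of 9 leukocyte markers tested, 2 were called, S100a8 (5.43) and S100a9 (4.42), both higher, and stressed keratinocytes make them too. Without this pair, singled out after their values were seen, the other 7 tested averaged 7.51, 6.98 and 6.78 in the same masses. In control forestomach they averaged 6.11 to 6.53. These 7 also leave out Ly6g, below the filter on every array, which the means of the whole list include. Fibroblast markers averaged 8.39, 9.20 and 6.92 in the same masses and 6.20 to 7.25 in control forestomach. Glandular stomach markers averaged 11.29 in the mass of animal 426, and 5.42 and 5.77 in the masses of animals 412 and 510. No marker of the glandular stomach or fibroblast list was called in limma. At an unadjusted p under 0.05 there were 1 of 9 and 0 of 7, beside 3942 of all 15875 genes tested. The part of these marker transcripts in the lower lipase levels was not tested. Without the mass of animal 426 the differences were -1.10 for Lipk (adjusted p = 0.0619 in limma), -0.98 for Lipm (0.0219), -2.06 for Lipn (0.0273) and -3.10 for Abhd12b (0.0291). Sebaceous gland markers, from another skin lipid source, averaged 5.60 to 6.01 in the masses and 5.93 to 6.06 in control forestomach, and 5 of 10, among them Mc5r and Awat1, stayed below the filter. The 5 tested all had a difference below 0 in the masses, and none was called in limma. These were Krt79 (-0.94), Cidea (-0.86), Fasn (-0.32), Awat2 (-0.24) and Plin5 (-0.03). Ctnnd1, the targeted gene, measured 9.51 to 9.91 in the masses and 10.14 to 10.40 in control forestomach (difference -0.56, SE 0.12, adjusted p = 0.0145 in limma). In the esophagus it measured 9.95 to 10.13 in flox/flox and 10.21 to 10.50 in control mice, and whether its probes lie in the deleted exons is not stated.

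In the esophagus none of the 4 genes was called between flox/flox and control mice in limma. At an unadjusted p under 0.05 in the same fit only Lipk passed, beside 6.98% of all genes tested. Lipk differed by -0.74 on the log2 scale (SE 0.28, 95% interval -1.34 to -0.13, unadjusted p = 0.0207, adjusted p = 0.614 in limma). By animal, its distance from the control mean was -1.21 and -1.18 in animals 193 and 335, and -0.28 in both 307 and 313. Lipm had its lowest values in the same animals, 193 and 335, with a difference of -0.30 (SE 0.19, adjusted p = 0.847 in limma). The difference was 0.34 for Lipn (SE 0.42, adjusted p = 0.985) and -0.04 for Abhd12b (SE 0.65, adjusted p = 0.999), with Lipn around the filter and Abhd12b below it. These SEs use the spread over all groups, which for Lipn and Abhd12b was widest in the masses. With the esophagus arrays alone the SE was 0.14 for Lipn and 0.12 for Abhd12b (adjusted p = 0.522 and 0.954 in limma). For Lipk and Lipm it was 0.28 and 0.14 (adjusted p = 0.492 and 0.556 in limma), so none was called there either. Of all genes tested, 0.0126% were called in this comparison, 2 genes in all.

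The esophagus samples were not uniform either. Leukocyte markers averaged 8.31 and 7.76 in the flox/flox esophagus of animals 193 and 335, the animals with low Lipk and Lipm, against 6.39 and 6.71 in animals 307 and 313 and 5.90 to 6.66 in control esophagus. Without S100a8, S100a9 and the low Ly6g, the other 7 averaged 7.97 and 7.67 in animals 193 and 335. They averaged 6.61 and 6.56 in animals 307 and 313 and 5.80 to 7.20 in control esophagus. Leaving out Ly6g raises these means, so they are not on the scale of the whole list. Granular and cornified markers averaged 9.02 and 8.82 in animals 193 and 335, against 9.27 and 9.36 in animals 307 and 313 and 9.50 to 9.59 in control esophagus. Skeletal muscle markers averaged 8.17 and 9.81 in the flox/flox esophagus of animals 307 and 335 and 8.43 in the control esophagus of animal 214, against 5.47 to 5.68 in the other esophagus arrays, and fibroblast markers were high in the same 3 (9.40, 10.09 and 10.96, against 6.10 to 6.41). The part of these transcripts in the Lipk values was not tested. Without those 3 arrays the difference was -0.79 for Lipk, -0.34 for Lipm and 0.38 for Lipn.

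The genotype difference in the forestomach minus that in the esophagus was -2.80 for Abhd12b (SE 0.95, adjusted p = 0.299 in limma) and -2.25 for Lipn (SE 0.62, adjusted p = 0.192). It was -0.67 for Lipm (SE 0.28, adjusted p = 0.428) and -0.37 for Lipk (SE 0.40, adjusted p = 0.853). None of the 4 passed, so a larger fall in the forestomach than in the esophagus was not shown for any of them. Abhd12b was below the filter on all 7 esophagus arrays and Lipn lay around it, and both were chosen for being high in control forestomach. Whether a fall from such low esophagus levels could be measured was not tested. The forestomach comparison alone gave -2.84 for Abhd12b and -1.90 for Lipn, so it made up most of the difference for both. In all, 0.139% of genes were called for this difference, 0.0567% negative and 0.0819% positive. Without the mass of animal 510, which had the highest levels, the values were -2.80 for Lipn (adjusted p = 0.0189 in limma) and -3.66 for Abhd12b (adjusted p = 0.0322), under the same limit.

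**Figure D2:**
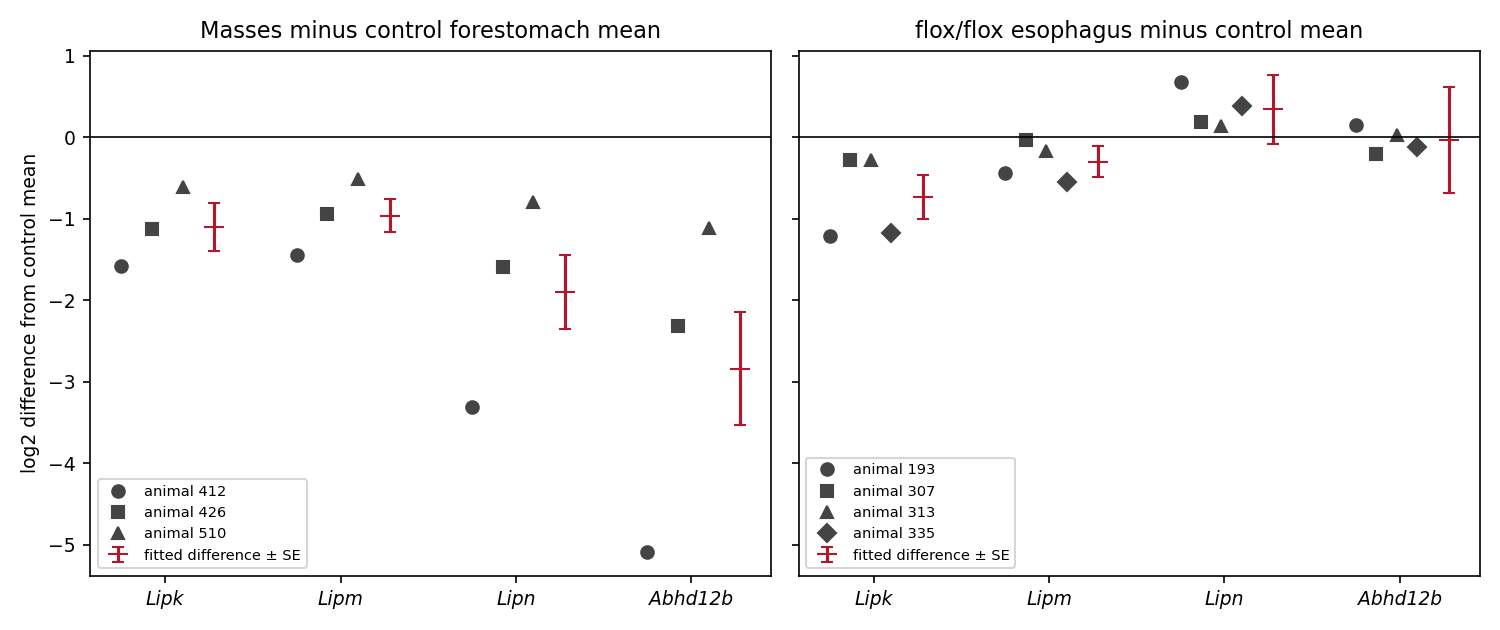
Log2 difference of each flox/flox animal from the control mean of its tissue, for masses (left) and esophagus (right), with the fitted difference and its SE in red. In the masses every point lies below 0 and animal 412 is lowest for each gene (for Abhd12b from a level below the filter), while in the esophagus Lipk is lowest in animals 193 and 335.

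Over the 13 arrays, Lipn and Abhd12b followed each other with a Pearson r of 0.965, and Lipm and Lipk with 0.843. The other pairs had 0.774 (Abhd12b and Lipm), 0.608 (Lipn and Lipm), 0.353 (Abhd12b and Lipk) and 0.154 (Lipn and Lipk). The 3 lipases that are neighbours on chromosome 19 thus did not share 1 pattern, and Lipn was closer to Abhd12b on chromosome 12. The arrays of 1 tissue, 1 genotype and, for controls, 1 animal are among these points, so the values describe these arrays. Lipn and Abhd12b were both chosen for being high in control forestomach, so their closeness is largely part of that choice. On the esophagus arrays Abhd12b was below the filter and Lipn lay around it.

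The genes around them did not show the forestomach levels of Lipn and Abhd12b. Of 10 neighbours of the chromosome 19 lipases, 6 were tested, and their control forestomach minus control esophagus differences lay between -0.80 and 0.29. Of 10 neighbours of Abhd12b, 9 were tested, and theirs lay between -0.22 and 0.22. No neighbour was called in the masses, beside 10.7% of all genes. Their mass minus control differences lay between -1.18 and 2.78 on chromosome 19 and between -0.44 and 0.38 on chromosome 12. Lipf, the gastric lipase beside Lipk, measured 3.47 to 4.04 on all arrays and was not tested.

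Within the acid lipase family, Lipa and Lipo3 were the other members tested, and neither was called in the masses. Lipa, the lysosomal lipase, differed by -0.20 (SE 0.38, adjusted p = 0.801 in limma), and Lipo3 by -1.18 (SE 0.55, adjusted p = 0.207). Neither had an unadjusted p under 0.05, beside 3942 of all 15875 genes tested that did. Among 20 other genes of the ABHD hydrolase list, 4 were called lower and none higher, beside 8.4% lower and 2.31% higher over all genes. Their median was -0.20, beside 0.01 over all genes. Abhd12, the relative of Abhd12b, changed by -0.88 (SE 0.15, adjusted p = 0.00513 in limma). The others were Abhd17b with -0.56, a remover of palmitate from proteins, Abhd14b with -1.02 and Abhd3, a phospholipase, with -0.75. A list of 27 other lipases had 6 called lower, none higher and a median of -0.36, beside the same values over all genes. They were Pnpla2, the first lipase of triglyceride breakdown, with -0.89, Pnpla1, which makes acylceramides in the epidermis, with -0.85, Pnpla3 with -1.13, Pnpla8 with -0.44, and the phospholipases Ddhd1 with -0.95 and Ddhd2 with -0.61.

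In the masses 8.4% of all genes were called lower and 2.31% higher, with a median of 0.01. Of 21 genes that make and move barrier lipids, 9 were called lower and 1 higher. Among them 20 had a difference below 0, with a median of -0.71. The count of lower genes in the list was 4 without the mass of animal 426 (8.08% over all genes). It was 0 when the forestomach arrays were fitted alone (2.10% over all genes). Acer1, an alkaline ceramidase, changed by -1.82. Cyp4f39, whose human counterpart makes omega-hydroxylated fatty acids, changed by -0.80, Elovl4, which elongates very long fatty acids, by -0.72, and Slc27a4, a fatty acid transporter, by -0.71. The exception was Sptlc3, a subunit of serine palmitoyltransferase, which starts sphingolipid synthesis. It averaged 7.84 ± 0.07 in the masses and 5.89 ± 0.16 in control forestomach (SD, n = 3 each), a rise of 1.96 (SE 0.21, adjusted p = 0.000628 in limma). Sptlc3 also ran opposite to Lipn between control tissues, with a control forestomach minus control esophagus difference of -4.80. Its genotype difference in the forestomach exceeded that in the esophagus by 2.71 (SE 0.29, adjusted p = 0.00284 in limma).

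Late squamous differentiation genes averaged 10.28, 10.08 and 10.70 in the masses of animals 412, 426 and 510, with animal 426 and not 412 lowest. In control forestomach they averaged 10.87 to 10.95. Of all genes, 8.4% were called lower in the masses, with a median of 0.01. The late differentiation list had 22 of 24 differences below 0, 5 called lower and a median of -0.64. The called genes were Lce1a1, a cornified envelope protein, with -1.46, Lor, the envelope protein loricrin, with -1.05, Sbsn with -0.999, the protease gene Asprv1 with -0.63 and Grhl1, a grainyhead transcription factor, with -0.49. With the mass of animal 426 left out, the late differentiation list had 5 lower and 2 higher, and 8.08% of all genes were called lower and 3.55% higher. When the forestomach arrays were fitted alone, the counts of lower genes were 0 for the barrier lipid and other lipase lists and 1 each for the ABHD and late differentiation lists, beside 2.10% lower over all genes. In the esophagus 0 genes of these 5 lists were called in limma between flox/flox and control mice. At an unadjusted p under 0.05 there were 4 of 21 in the barrier lipid list, 6 of 24 in the late differentiation list, 3 of 27 other lipases and 2 of 20 ABHD genes, beside 6.98% of all genes.

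**Figure D3:**
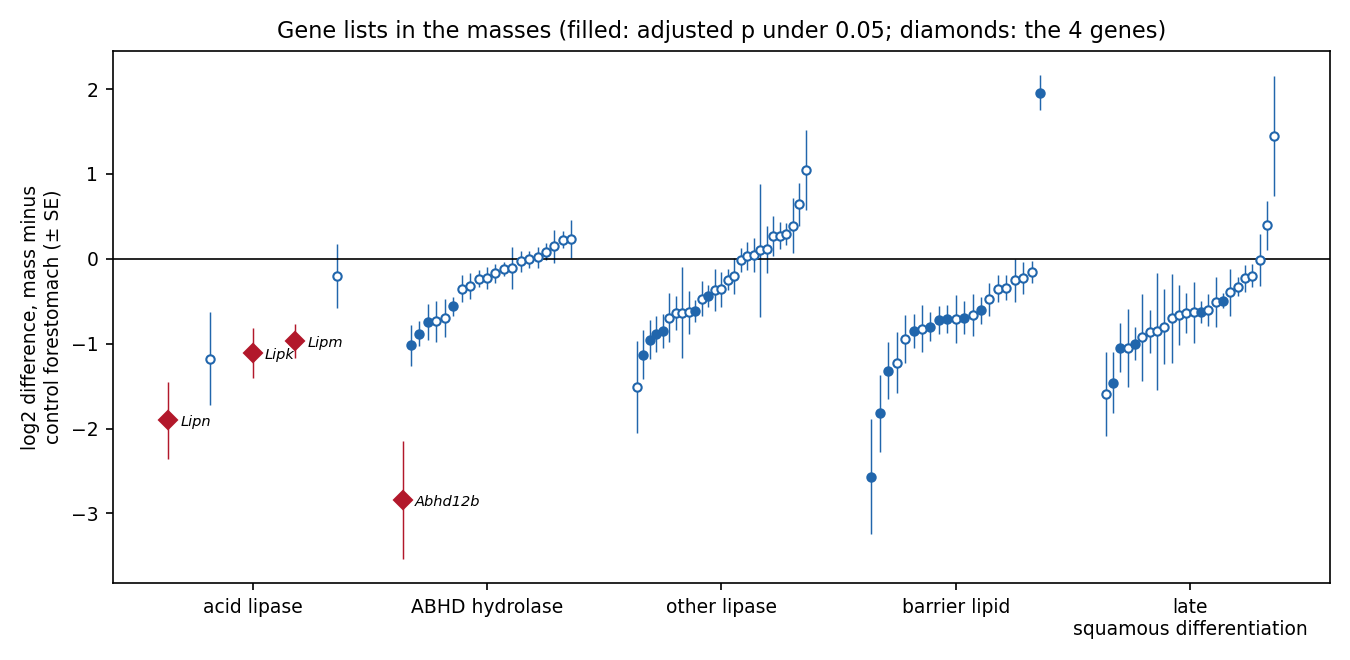
Log2 difference between masses and control forestomach, with its SE, for every tested gene of 5 lists, each list sorted by value and called genes filled. The 4 lipid hydrolases (diamonds) lie between -0.97 and -2.84, and Sptlc3 is the filled point of the barrier lipid list at 1.96.

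The genes with the pattern most like the mean of the 4 hydrolases over the 13 arrays were Serpina12 (Pearson r 0.995), Fa2h (0.993), Vnn1 (0.984), Spink5 (0.982), Tmem33 (0.980), Mmd (0.978), Lce6a (0.977), Hyal4 (0.974), Rtn3 (0.972) and Fam81a (0.972). The mean is dominated by Lipn and Abhd12b, whose range is widest. Fa2h makes 2-hydroxylated fatty acids for ceramides, Serpina12 (vaspin) is a serine protease inhibitor, Vnn1 is a pantetheinase and Spink5 is an inhibitor of epidermal kallikreins. Fa2h measured 5.77, 9.05 and 9.37 in the masses of animals 412, 426 and 510, against 10.65, 10.72 and 10.53 in the control forestomach of animals 214, 216 and 217. These genes were picked for their likeness over the same arrays, so their levels in the masses and their order among them are part of the choice and are given without a test. The mass minus control difference was -2.57 for Fa2h, -2.79 for Serpina12, -2.14 for Vnn1 and -0.58 for Spink5. Their control forestomach minus control esophagus differences were 5.57, 5.58, 4.80 and 0.92 in the same gene order. Pearson r takes no account of the size of a change, so genes of unlike size could be picked.

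The single genes had different closest companions. Lipk was closest to Far2, a fatty acyl-CoA reductase that makes fatty alcohols (r 0.984). Its control forestomach minus control esophagus difference was 0.38 and its mass minus control difference -2.86, values that the choice by likeness already used. Bnipl (0.975) and Arhgap40 (0.969) followed. Lipm was closest to Tm7sf2, a sterol reductase (r 0.984), Inpp5b, an inositol phosphatase (0.983), and Sgpl1, the lyase that breaks down sphingosine phosphate (0.980). Lipn was closest to Krt10, a keratin of the layers above the basal cells (r 0.986), Vnn1 (0.983) and Irx3 (0.983), and Abhd12b to Fa2h (0.995), Serpina12 (0.994) and Vnn1 (0.983). Krt10 measured 11.23, 13.45 and 13.40 in the masses of animals 412, 426 and 510, against 13.60 to 13.63 in control forestomach. In the mass of animal 426 Krt10 was thus near the control level while Lipn was at 33.3% of its own control level. Krt10 does not stand for its list there. The late differentiation genes, Krt10 among them, averaged 10.08 in that mass, against 10.87 to 10.95 in control forestomach.

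**Figure D4:**
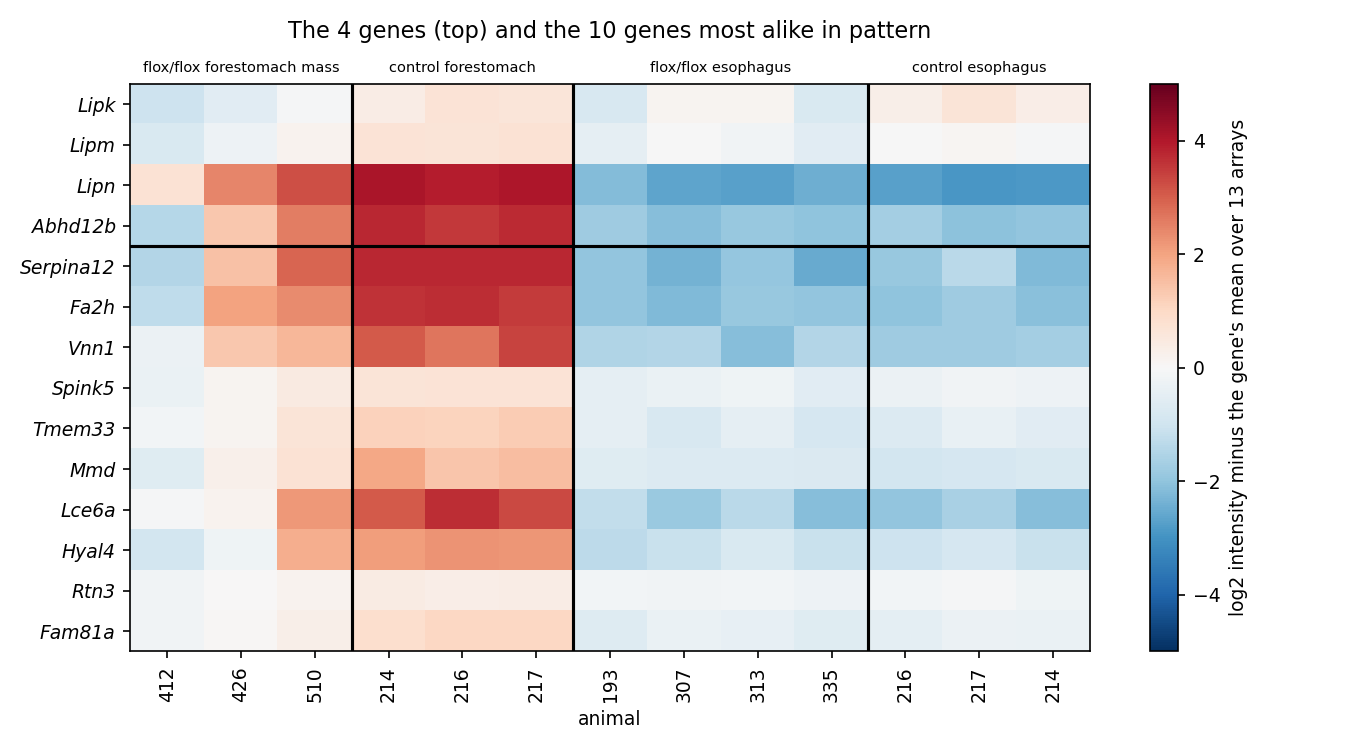
Log2 intensity minus each gene's mean over the 13 arrays for the 4 hydrolases (top) and the 10 genes most alike in pattern, with 1 column per array and the animal below it. Red is above and blue below the gene's own mean, and in most rows the mass of animal 412 is the palest or bluest of the forestomach columns, as the choice by likeness favours.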

How the data were processed

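RNA of dispase-separated epithelium was extracted with Trizol and hybridised as biotin-labelled cRNA, per the labels' protocols. The deposited values are linear intensity values made by the authors with GCRMA, per the submitters' processing notes (version not given in the sources used here). The table held 34729 probe sets, and the platform annotation gave 1 gene to 21633, several to 1306 and none to 11790. Array medians were 65.3 to 72.4, and precision is limited by how few arrays there are.

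Values were floored at 1 and put on the log2 scale. Genes needed a log2 intensity above 5 on at least 3 arrays, and 4059 fell below. Group means were fitted for all 13 arrays in limma 3.58.1 (R 4.3.3, lmFit and eBayes, 9 residual degrees of freedom), which was tested on simulated data. The labels name the same animals 214, 216 and 217 for control esophagus and control forestomach. Deviations of their arrays from the group means correlated at 0.401, 0.398 and 0.315 within an animal and at -0.425 to 0.129 between animals, so the arrays are paired, and the animal was used as a block in an alternative. Other samples come from different animals. The 4 genes and all gene lists were chosen with earlier results of these data known. Named from lists were up to 6 called genes by adjusted p, all acid lipase and ABHD genes, the 10 genes most alike to the mean of the 4 and the 3 most alike to each, without predicted and RIKEN genes. Gene order and promoters came from RefSeq on GRCm38.p6. Alternatives covered the filter, scaling, array weights, variance trend, the arrays fitted and each array left out. The limits set by raising levels to the filter, the list counts without the mass of animal 426 and the leukocyte means without S100a8 and S100a9 were added after seeing the data.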

Additional observations from a re-analysis of the deposited data

Results flagged for a closer look

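Lipn was singled out because its genotype differences ran in opposite directions in the forestomach and the esophagus. Every mass lay below the control forestomach mean, by -3.32, -1.59 and -0.80 on the log2 scale in animals 412, 426 and 510. Every flox/flox esophagus array lay above the control esophagus mean, by 0.67, 0.19, 0.13 and 0.38 in animals 193, 307, 313 and 335. The forestomach difference minus the esophagus difference was -2.25 (SE 0.62), with an adjusted p of 0.192 in limma, so the difference itself did not pass. The esophagus levels lay between 4.86 and 5.61, around the filter at 5. Whether a fall of Lipn from such levels could be measured was not tested.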

How the results depend on the processing

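In the masses, the 4 differences kept their sign under every alternative run. When the forestomach arrays were fitted alone, no call remained, with -1.11 for Lipk, -0.97 for Lipm, -1.90 for Lipn and -2.84 for Abhd12b, and array weights ended the call of Lipk (-1.14, adjusted p = 0.0642 in limma). With 1 array left out the ranges were -1.35 to -0.87 for Lipk, -1.19 to -0.72 for Lipm, -2.45 to -1.20 for Lipn and -3.70 to -1.72 for Abhd12b. Lipm kept its call each time. The call of Lipk was lost without any 1 of the 3 control forestomach arrays (adjusted p = 0.0743, 0.108 and 0.102 without animals 214, 216 and 217) and without the mass of animal 412 (0.106) or 426. Those of Lipn (0.0743, 0.0612 and 0.0664) and Abhd12b (0.0816, 0.0665 and 0.0759) were lost without the control forestomach of animals 214, 216 and 217. The esophagus difference of Abhd12b changed sign to 0.066 without the control esophagus of animal 216, to 0.02 without the flox/flox esophagus of animal 307 and to 0.0481 without the 3 arrays with muscle transcripts (an alternative chosen after seeing the data), and ranged from -0.11 to 0.07. The tissue-dependent genotype difference ranged from -2.80 to -1.54 for Lipn and from -3.66 to -1.68 for Abhd12b with 1 array left out. Between flox/flox tissues the ranges were 4.05 to 5.31 for Lipn and 1.92 to 3.91 for Abhd12b, the highest without the mass of animal 412. With the animal as a replicate block (consensus correlation 0.396), no call of the 4 genes changed, with adjusted p-values in the masses of 0.0358, 0.0121, 0.0219 and 0.0248 for Lipk, Lipm, Lipn and Abhd12b. Genes called in the masses numbered 1700, and 452 with only the forestomach arrays, 1102 with array weights and 749 to 2239 with 1 array left out. In the esophagus 2 were called, and 1 with median centring, 0 with only the esophagus arrays, 0 with the replicate block, 1 without the 3 arrays with muscle transcripts and 0 to 7 with 1 array left out; at an unadjusted p under 0.05 there were 1108. For the difference of the genotype differences 22 were called, and 101 with a stricter filter, 49 after quantile scaling, 60 with array weights, 56 with a trend and robust fit, 145 with the replicate block and 10 to 373 with 1 array left out. A fit of 1 tissue alone could not be made for that difference. The causes were not tested.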
